A study of Mus musculus with 8 samples.

Results

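The genes described here are 32 genes of the tight junction, out of 23393 gene symbols measured by RNA-seq in gut epithelium of mouse embryos. They were chosen by name: 22 claudins, occludin with its relatives Marveld2 and Marveld3, the scaffold proteins Tjp1, Tjp3, Cgn and Cgnl1, and the junctional adhesion molecules F11r, Jam2 and Jam3. Their values were read in 8 poly(A) RNA libraries of untreated embryos at E16.5 (embryonic day), with 2 libraries each from forestomach, hindstomach, proximal small intestine and colon. In the protocol these embryos are ShhCre;R26YFP/+ in all 4 tissues alike, so that a Cre recombinase expressed from the Shh gene, which is active in gut epithelium, switches on a yellow fluorescent reporter. The forestomach was cut from the hindstomach where squamous epithelium meets glandular epithelium, loosened with Dispase, and its epithelial sheet was peeled off by hand. The other 3 tissues were shaken in EDTA, with more EDTA for the hindstomach, so tissue and isolation method cannot be told apart for the forestomach or the hindstomach. The labels do not say whether replicates came from separate embryos, and p-values therefore measure only the spread between these libraries.

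Tight junctions are strands of membrane proteins near the apex of epithelial cells that close the gap between neighbouring cells. Claudins form the strands and set which ions pass: sealing claudins tighten the barrier, and pore-forming claudins such as Cldn2 and Cldn15 let small cations or water through. Occludin and Marveld2 belong to the tight junction-associated Marvel proteins, Tjp and cingulin proteins tie the strands to actin, and junctional adhesion molecules are immunoglobulin-type proteins of the same contact. In the gut, the claudin set differs between the squamous forestomach, the acid-secreting glandular stomach and the absorptive intestine.

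Of the 32 genes, 27 reached 1 FPKM (fragments normalised to transcript length and library size) in at least 1 library. A filter of at least 1 FPKM in at least 2 libraries left 24 of them for testing, 15 of which were claudins. The 8 that were not tested were Cldn11, Cldn13, Cldn14, Cldn16, Cldn17, Cldn20, Cldn22 and Jam2. Differences are given as log2 fold changes of FPKM + 1 from limma with their standard errors (SE), so the changes of weakly expressed genes are understated. Calls needed a p under 0.05 after Benjamini-Hochberg adjustment over all genes tested in the comparison, and a difference of at least 2-fold.

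The 6 epithelial markers (Epcam, Cdh1, Krt8, Krt18, Krt19 and Esrp1) were above 1 FPKM in every library. The library labelled forestomach replicate 1 stood apart. Its 10 gastric glandular markers summed to 173546 FPKM, above the 24866 and 31488 FPKM of the hindstomach libraries, and its 11 squamous markers to 1882 FPKM, against 50989 FPKM in forestomach replicate 2. The 2 forestomach libraries correlated at 0.713 across genes on the log2 scale, and the pairs of the other tissues at 0.959 to 0.984. Colon replicate 1 correlated with intestine replicate 1 at 0.972, and its 10 intestinal markers summed to 14815 FPKM, against 4848 FPKM in colon replicate 2. Both hindstomach libraries also held intestinal markers, at 3660 and 4170 FPKM, against 19559 and 28525 FPKM in the intestine. The source of these marker signals, and their part in the differences below, were not tested. In bulk tissue, fewer cells of a type and less RNA per cell cannot be told apart. Differences against the forestomach are given with and without forestomach replicate 1. In the fit without it, the remaining forestomach library is assumed to vary like those of the other tissues.

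Summed over the 22 claudins, transcript levels were lowest in the forestomach. The claudin sum was 208 and 371 FPKM in forestomach replicates 1 and 2, 771 and 680.4 FPKM in the hindstomach, 633 and 667 FPKM in the intestine, and 710.3 and 765 FPKM in the colon. Both forestomach libraries lay below the other 6, which overlapped each other. As tissue means the sums were 289 ± 115 FPKM (SD, n = 2) in forestomach, 726 ± 64.2 FPKM (SD, n = 2) in hindstomach, 650.3 ± 23.9 FPKM (SD, n = 2) in intestine and 738 ± 38.9 FPKM (SD, n = 2) in colon. No test was made on these sums.

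The leading claudins were Cldn18 in hindstomach and Cldn7 in intestine and colon, and the 2 forestomach libraries differed in theirs. Cldn18 alone made up 43.7% and 49.8% of the hindstomach claudin sum, and 84.2% of that of forestomach replicate 1. In forestomach replicate 2, Cldn4 led with 48.7%, and Cldn17 followed with 17.6%. Cldn7 led in intestine, with 49.2% and 48.9%, and in colon, with 43.9% and 37.9%. The next claudin in intestine was Cldn2, with 20.8% and 23.3%, and in both colon libraries it was Cldn3, with 16.4% and 20.4%.

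**Figure D1:**
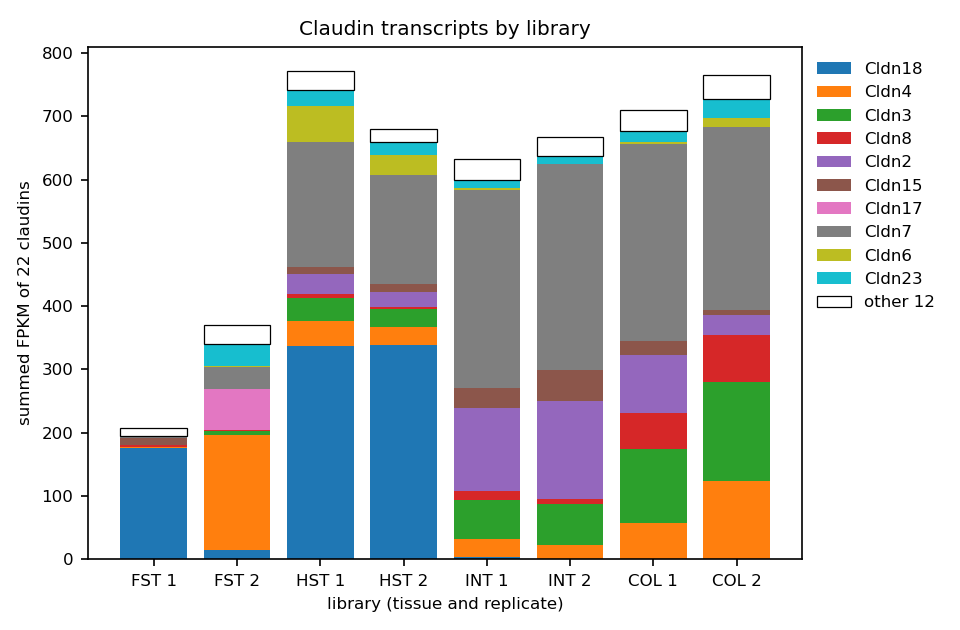
Claudin FPKM in each of the 8 libraries (FST forestomach, HST hindstomach, INT intestine, COL colon, with the replicate number), stacked by claudin from 0, with the 12 smaller claudins in white. The bar of forestomach replicate 1 is mostly Cldn18 and that of replicate 2 mostly Cldn4 and Cldn17, and the 2 libraries of every other tissue resemble each other more closely.

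Grouped by role, the pore-forming claudins Cldn2, Cldn10, Cldn15 and Cldn17 held 26.1% and 30.6% of the claudin sum in the intestine and 6.31% and 5.40% in the hindstomach. The ratio of pore-forming to sealing claudins was 1.35 and 1.88 in the intestine, and 0.115 and 0.0907 in the hindstomach. In the colon the ratio was 0.470 in replicate 1, the library with more intestinal marker RNA, and 0.107 in replicate 2. The forestomach ratios were 0.0676 and 0.313, and nearly all of the pore-forming share of 18.6% in replicate 2 came from Cldn17. The sealing class here was Cldn1, Cldn3, Cldn4, Cldn5, Cldn8, Cldn11, Cldn14, Cldn18 and Cldn19. The ratio leaves out the claudins put in neither class, Cldn7 among them, which held 54.5% and 53.1% of the claudin sum in the intestine. In this grouping the intestine libraries were the only ones of the 8 with more pore-forming than sealing claudin FPKM, and placing Cldn7 elsewhere would change the ratios.

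In the 3 comparisons without forestomach, 24 of the genes could be tested in a fit of 6 libraries. Between intestine and hindstomach, 3 were higher in the intestine and 3 lower, against 7.51% and 10.0% of all 12356 genes tested. Between colon and hindstomach, 3 were higher in the colon and 1 lower, against backgrounds of 4.53% and 3.14%. Between colon and intestine, 2 were higher in the colon and 0 lower, against 2.5% and 0.0405%. The median log2 fold change of the tested genes was -0.06, 0.25 and 0.22 in these comparisons, and that of all genes -0.25, 0.01 and 0.22. Rescaling by median-of-ratios size factors moved the median of all genes in intestine minus hindstomach from -0.25 to 0.00. The junction genes called there became 8 higher and 3 lower, against 10.4% and 7.47% of all 12308 genes tested.

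**Figure D2:**
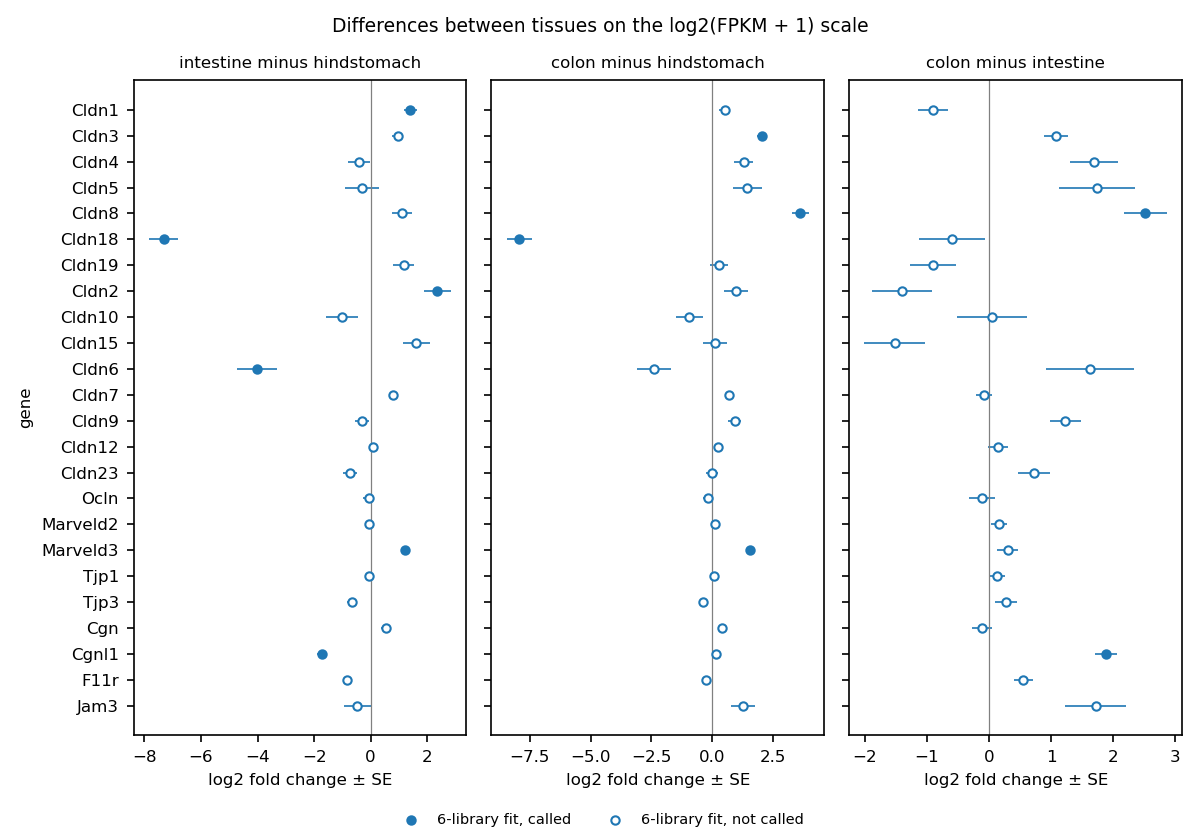
Log2 fold changes of FPKM + 1 with standard errors for the tested genes in intestine minus hindstomach, colon minus hindstomach and colon minus intestine, with filled points for called genes and a separate axis range in each panel. Cldn18 lies far to the left in both comparisons with hindstomach, at -7.32 and -7.92, and Cldn8 to the right in both colon comparisons, at 3.61 and 2.51.

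Against the forestomach, the calls depended on which forestomach library was in the fit. With all 8 libraries, 3 of the 24 tested genes were higher in the hindstomach and 0 lower (backgrounds 4.26% and 1.33% of 12894 genes), 8 were higher and 1 lower in the intestine (11.3% and 5.78%), and 8 were higher and 1 lower in the colon (9.2% and 2.41%). Without forestomach replicate 1 the counts were 9 higher and 2 lower in hindstomach (14.3% and 6.55% of 12502 genes), 9 and 3 in intestine (16.6% and 11.3%), and 11 and 2 in colon (19.1% and 6.44%). Without forestomach replicate 2 they were 10 and 0 in hindstomach (18.9% and 5.82% of 12646 genes), 13 and 3 in intestine (18.7% and 12.5%), and 15 and 1 in colon (21.9% and 6.22%). The 3 median log2 fold changes of the tested genes, with all libraries, were 0.77, 0.70 and 1.32, and those of all genes 0.39, 0.11 and 0.41. These 3 comparisons share the forestomach libraries, and the others share tissues in pairs.

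**Figure D3:**
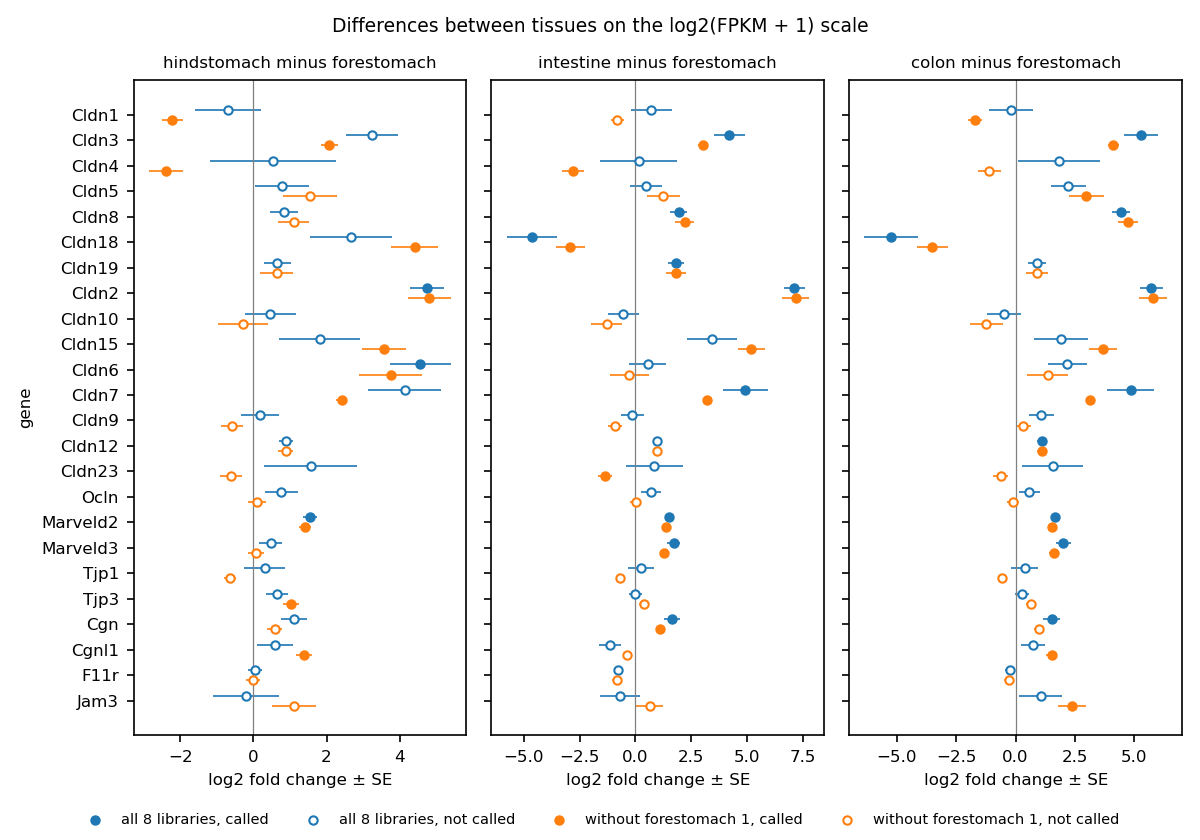
Log2 fold changes of FPKM + 1 with standard errors for the tested genes in the other 3 tissues minus forestomach, with all 8 libraries (blue) and without forestomach replicate 1 (orange), filled where called. Cldn4 changes side between the fits in hindstomach and in intestine (to -2.39 and -2.79), while Cldn2 and Marveld2 keep similar values in each comparison.

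Of these 6 counts, all but that of colon minus hindstomach moved by more than 1.5 times when some library was left out. For those that moved, the share of all genes called rose or fell in the same direction in each run given below. Only the direction of movement was compared, and not its size, between the shares and each junction gene count. In colon minus intestine it was 0 without colon replicate 2 or without intestine replicate 2, 1 without either hindstomach library, and 12 without colon replicate 1. In intestine minus hindstomach it was 3 without either hindstomach library and 2 without intestine replicate 2, and in colon minus hindstomach it ran from 3 to 6. In hindstomach minus forestomach it was 0 without either hindstomach library, 1 without either intestine library, and 10 without forestomach replicate 2. In intestine minus forestomach it was 1 without either intestine library, 5 without either hindstomach library, and 16 without forestomach replicate 2. In colon minus forestomach it was 3 without either colon library, 5 without either intestine library, 6 without either hindstomach library, and 16 without forestomach replicate 2. Of the 33 differences called with the full fits, 6 were called under every alternative run: Cldn2 in intestine and in colon minus forestomach, Cldn8 in colon minus forestomach and minus hindstomach, and Cldn18 in intestine and in colon minus hindstomach.

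**Figure D4:**
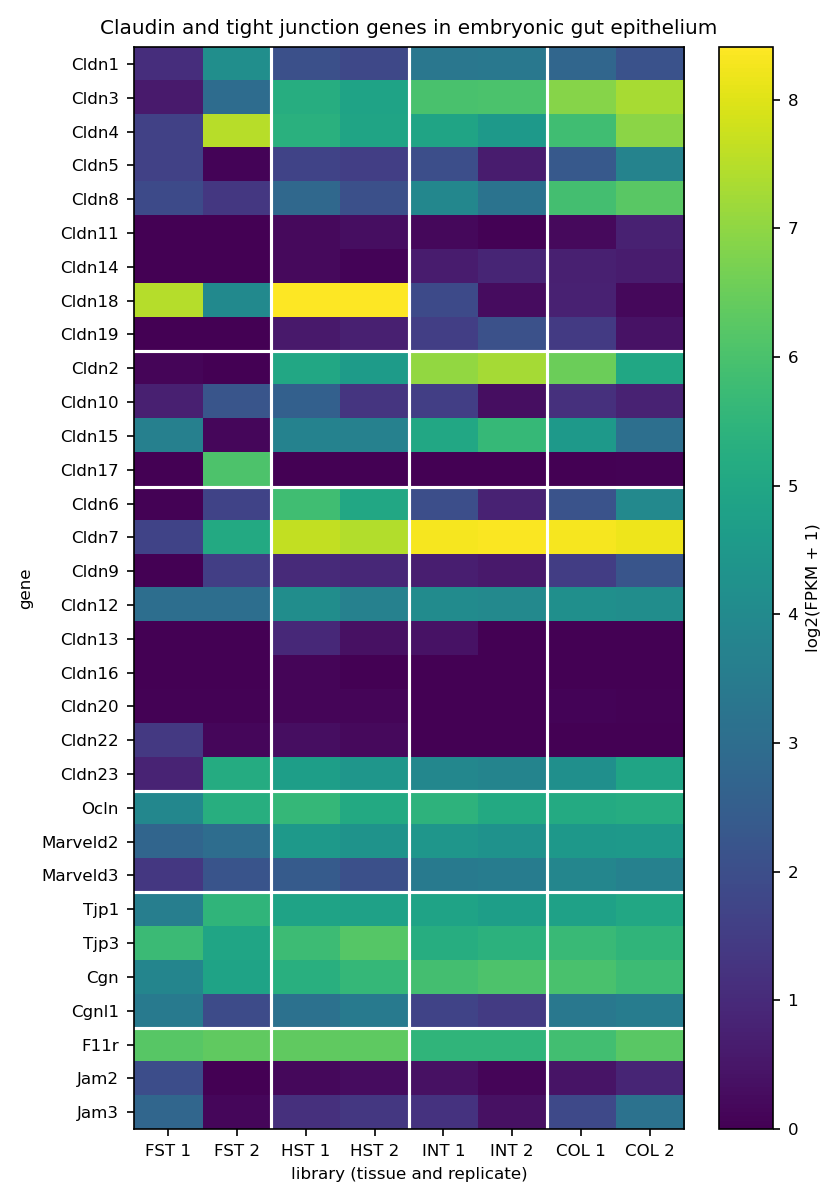
FPKM of the junction genes in each of the 8 libraries on a log2(FPKM + 1) colour scale, ordered by role. FST is forestomach, HST hindstomach, INT intestine and COL colon, and lighter cells are higher: Cldn18 and Cldn6 are lightest in HST, Cldn2 and Cldn15 in INT, and Cldn8 and Cldn3 in COL.

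Among sealing claudins, Cldn18, a claudin known from the stomach, showed the widest range. Its level was 175 and 14.9 FPKM in forestomach, 337 and 339 FPKM in hindstomach, 2.70 and 0.210 FPKM in intestine, and 0.716 and 0.146 FPKM in colon. Both hindstomach libraries were above all others, both intestine and colon libraries were below all others, and the forestomach libraries lay between. Cldn18 fell by 7.32 ± 0.53 (SE) on the log2 scale from hindstomach to intestine (adjusted p = 0.00183, limma), and the colon lay at -7.92 ± 0.53 (SE) against hindstomach (adjusted p = 0.00185).

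The difference of Cldn18 from the forestomach was -4.64 ± 1.12 (SE) in intestine (adjusted p = 0.0346) and -5.24 ± 1.12 (SE) in colon (adjusted p = 0.0334). Without forestomach replicate 1, the library rich in gastric markers, it was -2.91 and -3.51. In hindstomach it was 2.68 ± 1.12 (SE) with all libraries and was not called (adjusted p = 0.171, limma). The hindstomach difference was 4.41 without forestomach replicate 1 and 0.94 without forestomach replicate 2. Both calls against forestomach ended when any single intestine, colon or hindstomach library was left out, with adjusted p from 0.0622 to 0.196.

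Cldn18 lies at chr9:99689461-99717267 on the minus strand of GRCm38 and has a pair of annotated start sites, an upstream one and one inside the gene. FPKM is given per gene, so the values do not tell which start was used. RefSeq promoter windows, from 250 bases before to 50 after a start in GRCm38.p6, were matched for 25 of the 32 genes. The windows of Cldn18 and of Cldn2 are printed because these claudins mark hindstomach and intestine in these libraries; they were chosen after the values were seen. Capitals mark the letters AGATAA, the core bound by GATA factors, read on either strand, and in Cldn2 the letters TATAAA of a TATA box.
Cldn18, upstream start, chr9:99717218-99717517, minus strand: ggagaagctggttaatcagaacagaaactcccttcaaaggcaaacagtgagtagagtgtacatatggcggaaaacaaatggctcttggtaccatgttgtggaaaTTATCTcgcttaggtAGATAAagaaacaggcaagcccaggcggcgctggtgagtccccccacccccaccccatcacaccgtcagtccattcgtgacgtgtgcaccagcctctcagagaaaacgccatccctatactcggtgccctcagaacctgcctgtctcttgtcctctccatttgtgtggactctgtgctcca
Cldn18, inner start, chr9:99710014-99710313, minus strand: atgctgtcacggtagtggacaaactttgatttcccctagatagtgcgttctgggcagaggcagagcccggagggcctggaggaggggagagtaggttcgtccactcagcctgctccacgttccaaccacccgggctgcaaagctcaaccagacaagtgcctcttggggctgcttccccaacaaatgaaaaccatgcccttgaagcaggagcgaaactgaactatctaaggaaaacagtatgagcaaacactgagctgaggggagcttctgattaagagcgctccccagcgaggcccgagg
Cldn2, chrX:139800558-139800857, plus strand: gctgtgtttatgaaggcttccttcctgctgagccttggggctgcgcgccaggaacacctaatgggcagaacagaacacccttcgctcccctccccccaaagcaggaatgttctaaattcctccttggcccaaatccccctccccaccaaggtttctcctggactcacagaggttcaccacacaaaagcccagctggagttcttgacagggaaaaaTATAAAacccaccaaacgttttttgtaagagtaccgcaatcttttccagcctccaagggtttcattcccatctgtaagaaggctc

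The upstream Cldn18 window holds AGATAA on each strand, with first bases at -146 and -131 from the start site, and the inner window has no match to the letters searched. TATAAA begins at -35 from the Cldn2 start. The windows' GC content was 52% and 55.7% for Cldn18 and 51.3% for Cldn2, near the median of 52.7% over all 32851 RefSeq promoter windows. The motifs searched on both strands, none of which contains another although matches can share end letters, were AGATAA, in 11.2% of all windows and 3 of the 36 windows of the junction genes; TATAAA, in 13.6% and 3; AACNGGTT (grainyhead-like), in 2.09% and 2; CCATAAA (caudal type), in 2.75% and 0; and CAAAGTCCA (HNF4), in 0.475% and 0. Such matches describe letters in a window and not binding sites. Because the Cldn18 start in use is not known, the AGATAA letters of the upstream window cannot be tied to its hindstomach level.

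Cldn3 and Cldn8 were highest in the colon. Cldn3, a barrier claudin of simple epithelia, was at 0.539 and 6.86 FPKM in forestomach, 36.4 and 28.4 FPKM in hindstomach, 62.3 and 64.1 FPKM in intestine, and 116 and 156 FPKM in colon. The 4 tissues did not overlap. Cldn3 rose by 2.03 ± 0.19 (SE) from hindstomach to colon (adjusted p = 0.00435), with an adjusted p of 0.0503 when hindstomach replicate 2 was left out. Colon minus intestine was not called with all libraries, and was 1.29 without colon replicate 1, where it was called. Against forestomach Cldn3 was higher by 4.21 ± 0.71 (SE) in intestine (adjusted p = 0.0112) and 5.29 ± 0.71 (SE) in colon (adjusted p = 0.00782), and without forestomach replicate 1 by 3.03 and 4.11. These calls ended with either library of the intestine or of the colon left out, at adjusted p of 0.0557 to 0.0819.

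Cldn8, a sealing claudin known from the colon and the distal nephron, was at 2.71 and 1.55 FPKM in forestomach, 6.21 and 3.17 FPKM in hindstomach, 13.9 and 8.26 FPKM in intestine, and 58.1 and 75.0 FPKM in colon. The tissues did not overlap, and the lowest colon library was above the highest of the other 6. Cldn8 rose by 3.61 ± 0.35 (SE) from hindstomach to colon (adjusted p = 0.00464) and by 2.51 ± 0.35 (SE) from intestine to colon (adjusted p = 0.0292). The second of these calls ended without colon replicate 2 (adjusted p = 0.177), intestine replicate 2 (0.107) or either hindstomach library (0.0639 and 0.0638). Against forestomach Cldn8 was higher by 4.45 ± 0.39 (SE) in colon (adjusted p = 0.00187) and by 1.93 ± 0.39 (SE) in intestine (adjusted p = 0.0192), or by 4.72 and 2.20 without forestomach replicate 1. The intestine call ended without intestine replicate 1 (adjusted p = 0.126) or 2 (0.067).

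Cldn4, a sealing claudin, was at 2.11 and 181 FPKM in the 2 forestomach libraries. It was at 39.3 and 28.8 FPKM in hindstomach, 29.0 and 22 FPKM in intestine, and 56.4 and 123 FPKM in colon. The colon was above hindstomach and intestine in both libraries, and forestomach replicate 2 was the highest of all. With all libraries Cldn4 was called in none of the 6 comparisons. When forestomach replicate 1 was left out, Cldn4 was lower than forestomach in hindstomach, at -2.39 (adjusted p = 0.0159), and in intestine, at -2.79 (adjusted p = 0.00675). With forestomach replicate 2 left out instead, both directions turned, to 3.48 (adjusted p = 0.00578) and 3.08 (adjusted p = 0.00496), and colon was higher by 4.76.

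Cldn1, a claudin of the epidermal barrier, was at 1.16 and 16.9 FPKM in forestomach, 3.17 and 2.57 FPKM in hindstomach, 9.02 and 9.39 FPKM in intestine, and 5.80 and 3.39 FPKM in colon. Outside the forestomach, the intestine was highest and the hindstomach lowest in both libraries. Cldn1 rose by 1.40 ± 0.23 (SE) from hindstomach to intestine (adjusted p = 0.0119), a call that ended without hindstomach replicate 1 (adjusted p = 0.0549), hindstomach replicate 2 (0.0817) or intestine replicate 2 (0.0685). It lay below forestomach replicate 2 alone at -2.22 in hindstomach and -1.72 in colon, both called. Without forestomach replicate 2 the colon was instead higher, by 1.34 (adjusted p = 0.0151).

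Cldn5, the main claudin of endothelium, was at 2.08 and 0.0634 FPKM in forestomach, 2.25 and 1.96 FPKM in hindstomach, 3.02 and 0.567 FPKM in intestine, and 4.13 and 12.7 FPKM in colon. Both colon libraries were above the rest. Cldn5 was called in no comparison with all libraries. Colon was called higher than forestomach without forestomach replicate 1, by 2.98, and higher than intestine without colon replicate 1, by 2.44. The 10 endothelial markers summed to 35.8 and 2.37 FPKM in forestomach, 17 and 23.9 FPKM in hindstomach, 24.2 and 5.18 FPKM in intestine, and 26.9 and 73.1 FPKM in colon, with 9, 0, 5, 7, 7, 1, 8 and 10 of the 10 at 1 FPKM or more. Colon replicate 2 was highest and forestomach replicate 2 lowest in both Cldn5 and this sum, and the part of endothelial RNA in the Cldn5 differences was not tested.

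**Figure D5:**
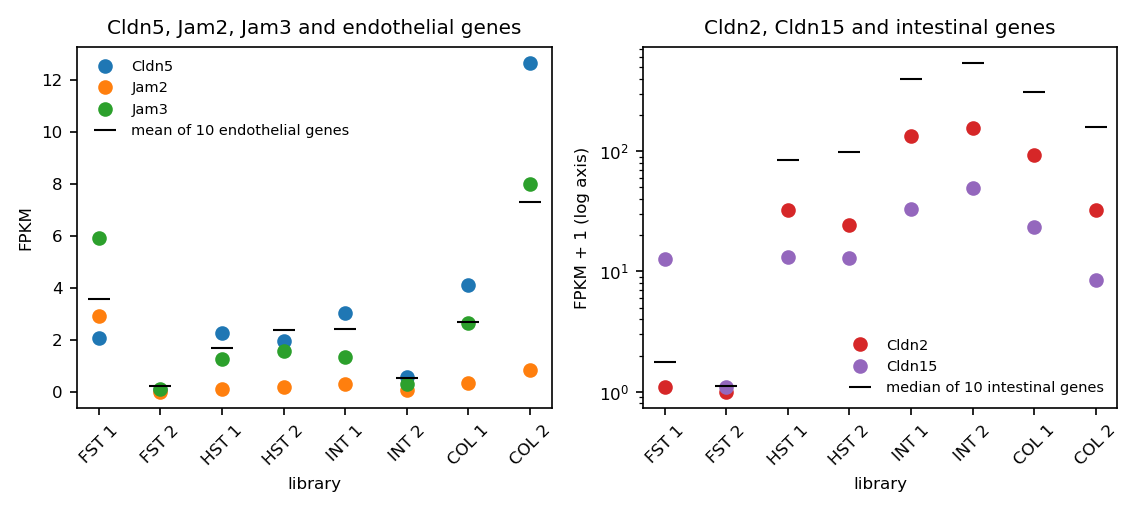
Left, FPKM of Cldn5, Jam2 and Jam3 in each library (points) with the mean FPKM of 10 endothelial genes (dash). Right, FPKM + 1 on a log axis for Cldn2 and Cldn15 with the median of 10 intestinal genes (dash), which is 309 FPKM in colon replicate 1 and 156 FPKM in replicate 2; Cldn2 and Cldn15 are also higher in colon replicate 1 than in replicate 2.

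Cldn19, which works with Cldn16 in the kidney, was low, at 0 and 0.0126 FPKM in forestomach, 0.477 and 0.682 FPKM in hindstomach, 1.97 and 3.22 FPKM in intestine, and 1.67 and 0.344 FPKM in colon. Both intestine libraries were above the other 6. It was higher in intestine than forestomach by 1.81 ± 0.37 (SE, adjusted p = 0.0208), and by 1.81 without forestomach replicate 1, and the call ended without either hindstomach library (adjusted p = 0.0554 and 0.0556) or either intestine library (0.0786 and 0.15). Cldn19 overlaps an antisense gene, Gm12927, and the use of strand in counting is not given, so reads of the pair cannot be told apart. Cldn11 and Cldn14 stayed below 1 FPKM in every library, with highest values of 0.690 and 0.841 FPKM.

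Among the pore-forming claudins, Cldn2, the cation and water pore of leaky epithelia, was the most abundant. It was at 0.0928 and 0 FPKM in forestomach, 31.6 and 23.2 FPKM in hindstomach, 132 and 155 FPKM in intestine, and 91.0 and 31.5 FPKM in colon. Both intestine libraries were above all others, both forestomach libraries were below all others, and colon replicate 2 lay within the hindstomach range. Cldn2 was higher than in forestomach by 4.75 ± 0.48 (SE) in hindstomach (adjusted p = 0.00661), 7.11 ± 0.48 (SE) in intestine (adjusted p = 6.21e-04) and 5.71 ± 0.48 (SE) in colon (adjusted p = 0.00165). These were 4.81, 7.17 and 5.77 without forestomach replicate 1, while the hindstomach call ended without hindstomach replicate 1 (adjusted p = 0.0836) or 2 (0.0599).

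Because the forestomach values were 0.0928 and 0 FPKM, the size of these differences depends on the pseudocount. From hindstomach to intestine Cldn2 rose by 2.36 ± 0.48 (SE, adjusted p = 0.0205). That call ended without hindstomach replicate 1 (adjusted p = 0.0765), hindstomach replicate 2 (0.109) or intestine replicate 2 (0.0854). Between colon and intestine it was called, at -2.15, only when colon replicate 1 was left out. Cldn2 and the intestinal markers were ordered alike in the colon pair, with replicate 1 above replicate 2 for both, and intestinal markers were also present in the hindstomach libraries. Their part in these differences was not tested.

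Cldn15, the sodium pore of the small intestine, was at 11.7 and 0.101 FPKM in forestomach, 12.1 and 12 FPKM in hindstomach, 31.7 and 48.4 FPKM in intestine, and 22.4 and 7.43 FPKM in colon. Both intestine libraries were above the other 6, and forestomach replicate 1 was near the hindstomach level. It was called in none of the 6 comparisons with all libraries. With forestomach replicate 2 alone, Cldn15 was higher than in forestomach by 3.57 in hindstomach (adjusted p = 0.00914), 5.19 in intestine and 3.67 in colon. Without colon replicate 1 the colon was lower than the intestine, at -2.25.

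Cldn10, which has cation- and anion-selective forms, was between 0.238 and 4.92 FPKM with no tissue apart from the rest. Its highest value was in hindstomach replicate 1, the library with the highest sum of 10 pancreatic acinar markers, 3679 FPKM. Its next highest, 3.65 FPKM, was in forestomach replicate 2, the library with the lowest such sum, 1.96 FPKM. The part of acinar RNA in the Cldn10 values was not tested. Cldn17, described as an anion pore, was at 65.4 FPKM in forestomach replicate 2 and at most 0.0331 FPKM in the other 7, including 0 in forestomach replicate 1. With that value in 1 library it passed no filter and was not tested. It lies 53849 bases from Cldn8 on chromosome 16, with 0 coding genes between. Cldn8 was at 1.55 FPKM in the library where Cldn17 was high.

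Of the remaining claudins, Cldn6, a claudin of embryonic epithelia, was the one most restricted to the hindstomach. Its level was 0.0410 and 2.20 FPKM in forestomach, 56.2 and 31.6 FPKM in hindstomach, 3.05 and 0.754 FPKM in intestine, and 3.39 and 14.4 FPKM in colon. Both hindstomach libraries were above the other 6. Cldn6 fell by 4.02 ± 0.71 (SE) from hindstomach to intestine (adjusted p = 0.0135), and the call ended without hindstomach replicate 1 (adjusted p = 0.0775), hindstomach replicate 2 (0.071) or intestine replicate 2 (0.0551). It was higher in hindstomach than forestomach by 4.56 ± 0.83 (SE, adjusted p = 0.0356), and by 3.75 without forestomach replicate 1. That call ended in 9 of 16 alternative runs. These left out either hindstomach or either intestine library, used pseudocount 0.1, or had no filter on low values. The others took the replicate number as a block, added a term for depth class, or fitted only the 2 tissues compared.

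Cldn9 lies 137 bases from Cldn6 on chromosome 17, on the opposite strand, with the 3′ ends of the pair facing each other. It was low, from 0.0123 to 3.60 FPKM with the highest value in colon replicate 2. It was called in no comparison with all libraries, and without forestomach replicate 2 it was higher in colon than forestomach, by 1.85. The hindstomach values of Cldn9 were 0.984 and 0.918 FPKM, so the hindstomach excess of Cldn6 was not seen in its neighbour. Reads of the 2 genes could be confused at this distance if counting did not use strand, which is not given.

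Cldn7, a claudin of the lateral membrane that binds Epcam, was the most abundant claudin in intestine and colon. It was at 2.21 and 33.9 FPKM in forestomach, 198 and 173 FPKM in hindstomach, 312 and 326 FPKM in intestine, and 312 and 290.1 FPKM in colon. Forestomach was below all other libraries and hindstomach below intestine and colon, which overlapped. Against hindstomach, intestine was higher by 0.78 ± 0.13 (SE, adjusted p = 0.0127, limma) and colon by 0.70 ± 0.13 (SE, adjusted p = 0.0311). Both were under the 2-fold rule and not called. Cldn7 was higher than in forestomach by 4.92 ± 1.00 (SE) in intestine (adjusted p = 0.0203) and 4.83 ± 1.00 (SE) in colon (adjusted p = 0.0303), and by 3.20 and 3.11 without forestomach replicate 1. In hindstomach Cldn7 was called higher by 2.42 without forestomach replicate 1 and by 5.86 without replicate 2, but not with both. The intestine call ended without either hindstomach library (adjusted p = 0.0532 and 0.0533) or either intestine library (0.103 and 0.118), and the colon call without any of the 6 libraries outside forestomach (0.0715 to 0.152).

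Cldn12, which is expressed in many tissues and lacks the usual scaffold-binding end, was even outside the forestomach. It was at 7.18 and 7.15 FPKM in forestomach, 16.4 and 12.1 FPKM in hindstomach, 15.8 and 14.4 FPKM in intestine, and 17.1 and 16.4 FPKM in colon. The forestomach libraries nearly coincided below the other 6. Colon was higher than forestomach by 1.12 ± 0.20 (SE, adjusted p = 0.0188), and by 1.12 without forestomach replicate 1. The call ended under median-of-ratios scaling, where the difference was 0.68, and without either colon or either intestine library (adjusted p = 0.068 to 0.116).

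Cldn23 was at 0.771 and 35.3 FPKM in forestomach, 25.2 and 20.5 FPKM in hindstomach, 13.8 and 12.8 FPKM in intestine, and 17.4 and 29.1 FPKM in colon. The forestomach libraries were the lowest and the highest of the 8. With all libraries it was not called, and without forestomach replicate 1 it was lower in intestine than forestomach, at -1.34 (adjusted p = 0.0191). Without forestomach replicate 2 it was higher there, by 3.01, and also higher in hindstomach, by 3.74, and colon, by 3.73. Of the other 4 claudins, Cldn22 reached 1.66 FPKM in forestomach replicate 1 and shares exon sequence with Wwc2 on the other strand, and Cldn13, Cldn16 and Cldn20 stayed at or below 0.940 FPKM. The Cldn13 high of 0.940 FPKM was in hindstomach replicate 1, where 9 erythroid markers summed to 12.5 FPKM, second to the 16 FPKM of colon replicate 2. In colon replicate 2 Cldn13 was at 0.00909 FPKM, and the part of erythroid RNA in its values was not tested.

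The 3 Marvel proteins differed in how even they were. Occludin, Ocln, was at 14.0 and 37.3 FPKM in forestomach, 47.7 and 33.1 FPKM in hindstomach, 42.1 and 33.8 FPKM in intestine, and 34.1 and 35.6 FPKM in colon. It was called in no comparison with all libraries, and without forestomach replicate 2 it was higher than forestomach by 1.44, 1.37 and 1.26 in hindstomach, intestine and colon. Outside the forestomach the 3 tissues overlapped, with a highest-to-lowest ratio of 1.44 over the 6 libraries. Marveld2, or tricellulin, the protein of contacts among 3 cells, was at 5.63 and 6.99 FPKM in forestomach, 21.8 and 18.8 FPKM in hindstomach, 20.6 and 18.5 FPKM in intestine, and 21.6 and 22.2 FPKM in colon. Forestomach was below the other 6 in both libraries.

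Marveld2 was higher than in forestomach by 1.55 ± 0.18 (SE) in hindstomach (adjusted p = 0.0109), 1.49 ± 0.18 (SE) in intestine (adjusted p = 0.00434) and 1.65 ± 0.18 (SE) in colon (adjusted p = 0.00421). Against forestomach replicate 2 alone the differences were 1.41, 1.36 and 1.52, all called. The hindstomach call ended without either hindstomach library (adjusted p = 0.135 and 0.0921) or either intestine library (0.0538 and 0.0543), and the intestine call without either intestine library (0.0553 and 0.0516). Ocln and Marveld2 are neighbours on chromosome 13, 43238 bases apart.

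Marveld3, the third Marvel protein, was higher in intestine and colon than in hindstomach. It was at 1.56 and 3.49 FPKM in forestomach, 4.36 and 3.15 FPKM in hindstomach, 9.70 and 10.5 FPKM in intestine, and 13.5 and 11.9 FPKM in colon. Intestine and colon did not overlap each other or the stomach tissues. Against hindstomach it was higher by 1.23 ± 0.17 (SE) in intestine (adjusted p = 0.00700) and 1.53 ± 0.17 (SE) in colon (adjusted p = 0.00631). Without intestine replicate 2 the first of these had an adjusted p of 0.0536. Against forestomach it was higher by 1.71 ± 0.31 (SE) in intestine (adjusted p = 0.0144) and 2.01 ± 0.31 (SE) in colon (adjusted p = 0.0126), and by 1.30 and 1.60 without forestomach replicate 1. Both ended without either library of their own tissue, at adjusted p of 0.0624 to 0.114.

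Among scaffold genes, cingulin-like 1 differed most. Cgnl1 was at 10.2 and 2.80 FPKM in forestomach, 7.77 and 10.1 FPKM in hindstomach, 2.21 and 1.73 FPKM in intestine, and 9.28 and 10.5 FPKM in colon. Both intestine libraries were below the other 6. From hindstomach to intestine Cgnl1 fell by 1.73 ± 0.18 (SE) on the log2 scale (adjusted p = 0.00355). It rose by 1.87 ± 0.18 (SE) from intestine to colon (adjusted p = 0.0113), a call that ended without colon replicate 2 (adjusted p = 0.0815) or intestine replicate 2 (0.0753). Against forestomach replicate 2 alone it was higher by 1.37 in hindstomach and 1.52 in colon. Without forestomach replicate 2 those differences were -0.18 and -0.040, and the intestine was lower, at -1.91.

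Cingulin, Cgn, was at 13.1 and 28.5 FPKM in forestomach, 38.6 and 48.0 FPKM in hindstomach, 59.2 and 66.0 FPKM in intestine, and 62.5 and 52.9 FPKM in colon. Forestomach was lowest and hindstomach next, and intestine and colon overlapped above them. Intestine was higher than forestomach by 1.64 ± 0.36 (SE, adjusted p = 0.0258) and colon by 1.52 ± 0.36 (SE, adjusted p = 0.043), and by 1.10 and 0.99 without forestomach replicate 1, the second then under the 2-fold rule. The colon call also ended without any of the other 6 libraries (adjusted p = 0.0939 to 0.193) and under median-of-ratios scaling, at 1.05. The intestine call ended likewise without any of those 6 libraries (0.0539 to 0.161).

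Tjp1, or ZO-1, was at 11.2 and 44.2 FPKM in forestomach, 28.7 and 27.3 FPKM in hindstomach, 28.5 and 25.4 FPKM in intestine, and 27.2 and 31.8 FPKM in colon. The forestomach libraries were the lowest and the highest, and Tjp1 was called in no comparison with all libraries. Without forestomach replicate 2 it was higher than forestomach by 1.25, 1.20 and 1.32 in hindstomach, intestine and colon. Tjp3, or ZO-3, was at 51.9 and 29.9 FPKM in forestomach, 53.7 and 72.6 FPKM in hindstomach, 37.2 and 41.5 FPKM in intestine, and 51.4 and 44.5 FPKM in colon. Both hindstomach libraries of Tjp3 were the highest of the 8. With the 2-fold rule it was called only in hindstomach minus forestomach without forestomach replicate 1, at 1.04, where the single forestomach library was its lowest value. Tjp3 shares exon sequence with Apba3 on the other strand, and Apba3 was at 11.3 to 24.7 FPKM, so Tjp3 values are uncertain by reads that may belong to it.

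Of the junctional adhesion molecules, F11r, also called JAM-A, is the one best known from epithelia. It was at 74.2 and 80.5 FPKM in forestomach, 80.2 and 79.4 FPKM in hindstomach, 44.5 and 44.2 FPKM in intestine, and 56.9 and 75.3 FPKM in colon. Intestine was below all others. It lay at -0.83 ± 0.15 (SE) against hindstomach (adjusted p = 0.0155, limma) and -0.79 ± 0.19 (SE) against forestomach (adjusted p = 0.0356). Both were under the 2-fold rule, and no comparison was called. Jam3, a molecule of endothelial and mesenchymal cells as well, was at 5.92 and 0.113 FPKM in forestomach, 1.27 and 1.56 FPKM in hindstomach, 1.33 and 0.303 FPKM in intestine, and 2.66 and 8.01 FPKM in colon. The highest value was in colon replicate 2, and no comparison was called with all libraries. Colon was called higher than forestomach without forestomach replicate 1, by 2.37, and higher than intestine without colon replicate 1, by 2.37. Without forestomach replicate 2 the intestine was lower than forestomach, at -1.99.

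Jam2 reached 2.93 FPKM in forestomach replicate 1 and stayed at or below 0.833 FPKM in the other 7, so it was not tested. Mesenchymal markers, 10 in number, summed to 2307 and 86.8 FPKM in forestomach, 179.8 and 296 FPKM in hindstomach, 289 and 61.0 FPKM in intestine, and 566 and 1290 FPKM in colon. Forestomach replicate 1 and colon replicate 2 were the highest libraries for this sum, as they were for Jam3 and Jam2, and forestomach replicate 2 was among the lowest. The part of mesenchymal RNA in the Jam2 and Jam3 values was not tested. Jam3 overlaps an antisense gene, Gm48796, so its reads cannot be told from those of that gene.

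Counting tissues in which both libraries were above the other 6, the 24 tested genes had 0 for forestomach (5.17% of all tested genes), 3 for hindstomach (Cldn18, Cldn6 and Tjp3; 12.1%), 3 for intestine (Cldn19, Cldn2 and Cldn15; 13%) and 5 for colon (Cldn3, Cldn5, Cldn8, Cldn12 and Marveld3; 8.26%). In the other 13 genes the highest tissue overlapped another. For the colon minus intestine comparison without colon replicate 1, the 12 called genes were 8 higher and 4 lower, against 14.0% and 4.8% of all genes. The genes higher were Cldn3, Cldn4, Cldn5, Cldn6, Cldn8, Cldn23, Cgnl1 and Jam3, and those lower were Cldn1, Cldn2, Cldn15 and Cldn19.

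Neighbouring claudins on chromosome 5 did not share 1 pattern. Cldn4 (chr5:134945119-134946934, minus strand) and Cldn3 (chr5:134986214-134987472, plus strand) lie 39279 bases apart with 0 coding genes between. Both were higher in both colon libraries than in hindstomach and intestine. In forestomach replicate 2, however, Cldn4 was at 181 FPKM and Cldn3 at 6.86 FPKM. Cldn3 overlaps the antisense gene Wbscr25, which was at or below 0.105 FPKM in every library.

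A list of other tight junction and polarity genes, of which 51 were in the table, gave the surroundings of these genes. With all libraries, 3 of 44 tested were higher in hindstomach than forestomach and 0 lower, 5 higher and 2 lower in intestine, and 4 higher and 0 lower in colon. The backgrounds are those given above for the same comparisons, and the list's medians were 0.49, 0.06 and 0.37. The 3 in hindstomach were Cxadr, a virus receptor at the junction (1.71, adjusted p = 0.0264), Amot, a polarity scaffold (1.68, adjusted p = 0.0121), and Epcam, the adhesion partner of Cldn7 (1.85, adjusted p = 0.0283). Amot and Epcam were also higher in intestine (2.46 and 2.34) and colon (2.53 and 2.26), as was the polarity gene Pard3b (1.62 and 1.53). The Pard3b call in intestine ended without either intestine library (adjusted p of up to 0.110), and that in colon without any of the 6 libraries outside forestomach (up to 0.136). The Amot calls in intestine and colon held with any 1 library left out. The Epcam calls ended without intestine replicate 2 (adjusted p = 0.0578) and without colon replicate 1 (0.0689), and each of the hindstomach calls without either hindstomach or either intestine library, with adjusted p of up to 0.234. In intestine the genes lower than forestomach were Amotl2 (-1.96) and Lin7b (-1.43). Both ended without either intestine library, and Lin7b also without either hindstomach library, with adjusted p of up to 0.118 and 0.152.

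Epcam itself was at 83.2 and 146 FPKM in forestomach, 427.5 and 374 FPKM in hindstomach, 559.7 and 564 FPKM in intestine, and 557 and 511 FPKM in colon. Cldn7 and Epcam were thus both lowest in forestomach replicate 1, next lowest in replicate 2, and highest in intestine replicate 2. Without forestomach replicate 1 the list's medians were 0.28, 0.16 and 0.34 in hindstomach, intestine and colon, against 0.34, 0.05 and 0.31 for all genes. Tiam1, an activator of Rac, was at 40.3 FPKM in forestomach replicate 2, and Pard6g, a polarity protein, at 50.1 FPKM, against at most 6.76 FPKM for either in the other 7 libraries. Igsf5, or JAM4, went the other way: its 1.48 FPKM in that library was below all other libraries, at 11.1 to 29.5 FPKM.

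Outside the forestomach, 7.51% of all genes tested were higher and 10.0% lower in intestine minus hindstomach. The shares were 4.53% and 3.14% in colon minus hindstomach, and 2.5% and 0.0405% in colon minus intestine. From the list, 42 of the 51 could be tested in these comparisons. Between intestine and hindstomach 0 were higher and 3 lower: Amotl1 (-1.88, adjusted p = 0.0208), the vesicle protein Rab3b (-1.82, adjusted p = 0.00417) and the tight junction protein Arhgef2 (-1.33, adjusted p = 0.0265). The Rab3b call ended without hindstomach replicate 2 (adjusted p = 0.0563), and the other 2 without either hindstomach library or intestine replicate 2, with adjusted p of up to 0.135. Ildr1, a protein of 3-cell contacts like Marveld2, was at 0.191 and 5.33 FPKM in forestomach, 1.12 and 0.582 FPKM in hindstomach, 1.84 and 1.54 FPKM in intestine, and 11.5 and 15.7 FPKM in colon. The colon was above all other libraries. Ildr1 rose by 2.98 ± 0.23 (SE) from hindstomach to colon (adjusted p = 0.00248) and by 2.42 ± 0.23 (SE) from intestine to colon (adjusted p = 0.0113), the second call ending without colon replicate 2 or intestine replicate 2 (adjusted p of up to 0.0715). In colon minus hindstomach 1 of the list was higher and 1, Rab3b (-1.12), lower. That Rab3b call ended without any library of the 6 other than colon replicate 2, with adjusted p of up to 0.190. In colon minus intestine Ildr1 was the 1 gene called.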

How the data were processed

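The measurements are poly(A) RNA-seq of 8 epithelial samples, 2 in each of 4 tissues. The authors deposited FPKM values per gene symbol in a table of 23393 symbols, 0 of them duplicated; 4 further columns match no sample here and were not used. STAR 2.4.2a and mm10 (GRCm38) are given by the submitters' processing notes, while for the program behind FPKM, its annotation and its use of strand, the answer is not given in the sources used here. FPKM keeps no read totals, so no interval or detection limit was derived, and precision rests on the spread between libraries. Relative depth was estimated from the commonest ratio of low values to those of intestine replicate 1, set to 1. It was 0.937 and 0.461 in forestomach, 0.948 and 0.426 in hindstomach, 0.495 in intestine replicate 2, and 0.474 and 0.852 in colon. The depth class used below separates the deeper from the shallower library of each tissue.

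Values were analysed as log2(FPKM + 1) with limma 3.58.1 in R 4.3.3 (mean-variance trend) for genes reaching 1 FPKM in 2 or more libraries of the fit, and adjusted by Benjamini-Hochberg within each of 6 comparisons. Comparisons with forestomach used all 8 libraries, and the other 3 the 6 libraries outside forestomach. The fits were tested on simulated data. There, 2-fold changes were called in 4% to 8% of changed genes in comparisons with forestomach and in 26% to 32% in the others. For 4-fold changes these were 46% to 56% and 74% to 88%. A gene that was not called may therefore still differ. The alternatives were pseudocount 0.1, no filter, no fold rule, no trend, median-of-ratios scaling, other sets of libraries, the replicate number as a block, leaving out each library, and, chosen after seeing the data, a term for depth class. Coordinates come from GENCODE M21 on GRCm38, where all 32 genes matched as protein coding, and promoters from RefSeq on GRCm38.p6. Protein sequences were not used here.

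Members and lists were chosen with earlier results of these data known. Every member at 1 FPKM or more was named, those called or averaging 10 FPKM or more in a tissue with every library's value; from the other list, at most 3 called genes a direction were named by size, and Tiam1, Pard6g and Igsf5 by the same rule without forestomach replicate 1. One gene that this rule names is not reported here. The named immune, neuronal, mesothelial and colonic marker lists are reported with the closing values.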

Additional observations from a re-analysis of the deposited data

How the results depend on the processing

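Limits: 2 libraries a tissue, no read counts, and an unlike forestomach pair set the precision. Fitting the 2 tissues compared alone called 1, 1 and 2 junction genes for hindstomach, intestine and colon minus forestomach, against 3, 9 and 9. The shares of all genes called were 0.891%, 6.20% and 1.21%, against 5.59%, 17.1% and 11.6%. Fitting all 8 libraries gave 2 of 6, 2 of 4 and 0 of 2 in intestine minus hindstomach, colon minus hindstomach and colon minus intestine. In intestine minus hindstomach the count of 6 became 11 under median-of-ratios scaling and 10 with no fold rule. The share of all genes called went from 17.5% to 17.9% and 34.9% in these runs. In colon minus intestine the count of 2 became 1 with no filter on low values and 1 with the replicate block. It became 5 with a depth class term chosen after seeing the data. In the same order, 0.702%, 0.931% and 4.55% of all genes were called, against 2.54% in the main fit. With 1 library left out, the 6 counts ranged from 0 to 11, 1 to 16, 3 to 16, 2 to 8, 3 to 6 and 0 to 12, in the order hindstomach, intestine and colon minus forestomach, intestine and colon minus hindstomach, colon minus intestine. The cause was not tested.

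Same-numbered libraries did not deviate together in every pair of tissues (correlations from -0.578 to 0.270). The libraries of a tissue also differ in markers of other cells and tissues, whose source was not tested. Such differences also enter these correlations. They therefore cannot tell whether same-numbered libraries shared embryos or a batch, and the main fits left the numbers out. With the replicate block the counts were 2, 9, 8, 6, 4 and 1, against 2.60%, 14.7%, 8.16%, 15.5%, 5.66% and 0.931% of all genes. The calls it ended were Cldn6 in hindstomach minus forestomach, Cgn in colon minus forestomach and Cldn8 in colon minus intestine. Having no filter on low values ended those 3 calls and that of Cldn7 in colon minus forestomach. It also ended Cldn18 in intestine and in colon minus forestomach, and Cldn2 in intestine minus hindstomach.

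The claudin sum under median-of-ratios scaling was 641 FPKM in hindstomach, 724 FPKM in intestine and 626 FPKM in colon, so the order of these 3 tissues depends on the scaling, and the forestomach stayed lowest at 339.7 FPKM.

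Of the 760 alternative values of the 49 differences called with all libraries or without forestomach replicate 1, 10 changed sign, all in comparisons with forestomach. Over all 24 tested genes, called or not, leaving out forestomach replicate 1 turned the sign of 7, 7 and 4 differences in hindstomach, intestine and colon, and leaving out replicate 2 that of 2, 3 and 5. With 1 library left out, Cldn1 ran from -2.22 to 0.83 in hindstomach and from -1.72 to 1.34 in colon minus forestomach, Cldn4 from -2.39 to 3.48 in hindstomach and from -2.79 to 3.08 in intestine, Cldn23 from -1.34 to 3.01 in intestine, Cgnl1 from -0.18 to 1.37 in hindstomach and from -0.040 to 1.52 in colon, and Jam3 from -0.27 to 2.37 in colon. The ends of each range are the values without forestomach replicate 1 or 2. The sign also turned without intestine replicate 1 for Cldn4 in intestine (-0.047) and without colon replicate 2 for Cldn1 in colon (0.13).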

Other observations

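Marker lists of other cells were read beside the junction genes. The 8 immune markers summed to 12.8 to 96.5 FPKM, highest in forestomach replicate 1 and lowest in replicate 2, and the 8 neuronal and glial markers to 2.58 to 93.3 FPKM, highest in colon replicate 2. The 5 mesothelial markers summed to 29.5 to 86.4 FPKM. Of the 8 colonic markers, 8 were at 1 FPKM or more in both colon libraries, against 0 to 3 in the other 6. Their sums overlapped, at 124 and 94.5 FPKM in colon and 76.1 and 106 FPKM in intestine. The sums were 25.5 and 23.3 FPKM in hindstomach, and 1.62 and 0.229 FPKM in forestomach.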
